A study of Mus musculus with 90 samples.

Results

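Complement and coagulation factors are plasma proteins made largely by hepatocytes, and the transcripts of 33 of their genes were followed in mouse liver across 5 RNA-seq experiments. The genes were chosen by symbol out of 24312 symbols in the expression table, with earlier results of these data known. All 33 were found and tested in every comparison. They comprise lectin pathway genes (Mbl1, Mbl2, Masp1, Masp2), genes of the complement convertases (C2, C3, C4b, Cfb), terminal complement genes (Hc, C6, C8a, C8b, C8g, C9), complement regulators (Cfi, Serping1), the contact system (F11, F12, Klkb1, Kng1, Kng2), vitamin K-dependent factors (F2, F7, F9, F10, Proc, Pros1), F5 and F13b, and fibrinolysis and serpin genes (Plg, Serpinf2, Serpinc1, Serpind1).

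Complement tags foreign surfaces when recognition molecules such as the mannose-binding lectins activate proteases that cleave C4 and C2. The resulting convertases cleave C3 and then C5, so that C5b, C6, C7, C8, and C9 assemble into the membrane attack complex. Coagulation is likewise a chain of zymogens, in which the contact system by way of factor XI, or tissue factor with factor VII, leads through factors IX and X to thrombin. Protein C, protein S, antithrombin, and heparin cofactor II restrain this chain, and plasmin dissolves the fibrin formed. The glucocorticoid receptor (GR) and FOXO1, which insulin signaling excludes from the nucleus, are transcription factors active in the unfed liver.

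The 54 libraries came from livers of single mice in 16 groups labelled C57BL/6 (by the study's methods C57BL/6N for the wild-type and Nr3c1 (fl/fl) mice and C57BL/6J for the L-IRSdKO background), killed around the night meal of a schedule of night-restricted feeding (NRF). In the first experiment, wild-type mice of 10 weeks of age were kept on NRF for 4 days and killed at ZT10, at ZT14 without food (ZT14-unfed), or at ZT14 after the meal (ZT14-fed), with 2 mice per group. In the second, wild-type mice of the same age were injected before the meal and killed at ZT14, with 4 mice in each of 5 groups, namely unfed vehicle, fed vehicle, fed dexamethasone (dex, a synthetic glucocorticoid, 1 mg/kg), fed S961 (an antagonist of the insulin receptor, 44 nM per mouse by the sample labels, whereas the study's methods state an amount per kg of body weight, so the dose is uncertain), and fed dex + S961. L-GRKO mice were Nr3c1 (fl/fl) mice given an AAV that expresses CRE from the hepatocyte promoter TBG, their controls were Nr3c1 (fl/fl) mice given AAV-GFP, and both were unfed at ZT14 (n = 4 each). L-IRSdKO mice carried Irs1 (fl/fl), Irs2 (fl/fl), and Alb-Cre, their floxed controls lacked Alb-Cre, and all 8 mice, 10 weeks of age, received 1 mg/kg dex before the meal and were fed at ZT14 (n = 4 each), so that no vehicle-injected liver of these genotypes was analysed here. In the fifth, wild-type mice received a high-fat diet (obese) or chow (lean) for 10 weeks from 5 weeks of age, then 4 days of NRF, and were unfed or fed at ZT14 (n = 3 each).

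RNA values are RPKM, that is reads per kilobase of transcript scaled to the library's mapped reads, and a fold change is on the log2(RPKM + 0.5) scale. Each experiment was fitted apart with limma, over all genes that averaged 0.5 RPKM or more in that experiment, and p-values were adjusted by Benjamini-Hochberg over all of those genes. A gene was called changed at an adjusted p under 0.01 in the NRF and the lean and obese mice, and under 0.05 in the injected, L-GRKO, and L-IRSdKO mice and for the interaction of diet and meal. Where groups are said not to overlap, this describes the values of that gene, and the share of all genes without overlap was not counted. The deposited RPKM carry no read totals, the totals stated by the study are not used here, and no counting error is given. Libraries of the NRF mice were depleted of ribosomal RNA and the others enriched for poly(A), so levels are not compared between those experiments. None of 6 hepatocyte markers was at 0 in any group.

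GR and FOXO1 peaks mapped in unfed livers at ZT14 lay near most of these genes. Within 50 kb of the annotated start, 33 of 33 genes had a GR peak and 27 (81.8%) a FOXO1 peak, against 48.0% and 50.9% of 9235 genes tested in the NRF mice and placed in the annotation. Within 1 kb, 15 genes (45.5%) had a GR peak and 13 (39.4%) a FOXO1 peak, against 5.5% and 12.4% of those genes. A GR peak that shared at least 1 base with a FOXO1 peak lay within 50 kb of 25 genes (75.8%), against 29.4% of all. The 33 genes are among the more abundant liver transcripts, most other genes are not, and the peak lists give no height, so these shares are a description without a test. Neighbors within these windows share peaks, namely F11 and Klkb1, F7 and F10, Kng1 and Kng2, and C2 and Cfb.

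The peaks printed here, 1 per gene, belong to genes whose RNA changed in at least 1 comparison below and were picked by hand to show some with and some without the motifs searched, and those of Serpinf2, Masp1, and C8a are not the nearest to the start. They are given as the plus strand of mm9, 5′ to 3′, with the distance of each center from the gene's start (negative upstream). Capitals mark the GR half-site, spelled TGTTCT on one strand, which reads as AGAACA when seen from the opposite strand, or the forkhead motif, spelled TGTTTAC and searched in the same way on both strands. A peak in lower case throughout holds neither string.
C6, GR, chr15:4676969-4677148, intergenic, centered at -117 bp from the start: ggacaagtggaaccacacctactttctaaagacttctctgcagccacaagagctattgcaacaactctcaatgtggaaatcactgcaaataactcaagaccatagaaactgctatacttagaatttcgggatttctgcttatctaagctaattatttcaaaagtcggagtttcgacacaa
C9, GR, chr15:6395122-6395301, intergenic, centered at -116 bp: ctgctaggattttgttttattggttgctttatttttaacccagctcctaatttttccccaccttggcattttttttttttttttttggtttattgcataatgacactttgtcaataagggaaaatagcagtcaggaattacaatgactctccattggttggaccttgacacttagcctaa
Hc, GR, chr2:34929665-34929844, intergenic, centered at -12796 bp: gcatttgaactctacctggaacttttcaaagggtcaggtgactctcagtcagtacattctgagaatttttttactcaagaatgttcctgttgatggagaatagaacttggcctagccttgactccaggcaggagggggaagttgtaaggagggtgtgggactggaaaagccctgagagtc
Mbl2, GR, chr19:30269565-30269744, intergenic, centered at -37764 bp: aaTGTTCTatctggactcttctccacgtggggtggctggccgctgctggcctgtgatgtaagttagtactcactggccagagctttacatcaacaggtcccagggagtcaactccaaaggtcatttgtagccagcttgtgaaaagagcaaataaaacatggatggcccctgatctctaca
Masp1, GR, chr16:23497653-23497832, in an intron, centered at +22934 bp: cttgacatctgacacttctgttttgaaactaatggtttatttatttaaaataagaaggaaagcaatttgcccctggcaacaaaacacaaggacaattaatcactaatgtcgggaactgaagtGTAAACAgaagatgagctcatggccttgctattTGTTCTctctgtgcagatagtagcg
C8a, FOXO1, chr4:104511853-104512032, in an intron, centered at +37061 bp: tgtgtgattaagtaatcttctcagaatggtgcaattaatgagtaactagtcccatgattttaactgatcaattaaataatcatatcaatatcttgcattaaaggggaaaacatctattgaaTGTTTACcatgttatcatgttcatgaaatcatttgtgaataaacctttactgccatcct
Pros1, FOXO1, chr16:62854564-62854743, in an intron, centered at +520 bp: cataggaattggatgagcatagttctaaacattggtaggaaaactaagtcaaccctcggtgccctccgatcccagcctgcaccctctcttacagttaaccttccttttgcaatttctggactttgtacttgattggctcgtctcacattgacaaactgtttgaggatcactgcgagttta
Serpinf2, FOXO1, chr11:75257335-75257514, in an intron of the neighbor Wdr81, centered at -4331 bp: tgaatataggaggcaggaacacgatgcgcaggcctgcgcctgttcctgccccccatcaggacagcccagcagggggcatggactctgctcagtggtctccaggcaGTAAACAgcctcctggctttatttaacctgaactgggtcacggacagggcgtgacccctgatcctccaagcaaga
Over all peaks, the half-site occurred in 27.7% of 10446 GR peaks and 19.5% of 8546 FOXO1 peaks, and the forkhead motif in 7.3% and 18.8%. The full GR element, a pair of inverted half-sites separated by 3 bases, occurred in 0.3% of GR peaks. Of the 33 genes, 24 matched a RefSeq promoter of 300 bases (GRCm38.p6), and 9 of these (37.5%) held the half-site and 2 (8.3%) the forkhead motif, against 19.0% and 3.5% of 27025 promoters.

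**Figure D1:**
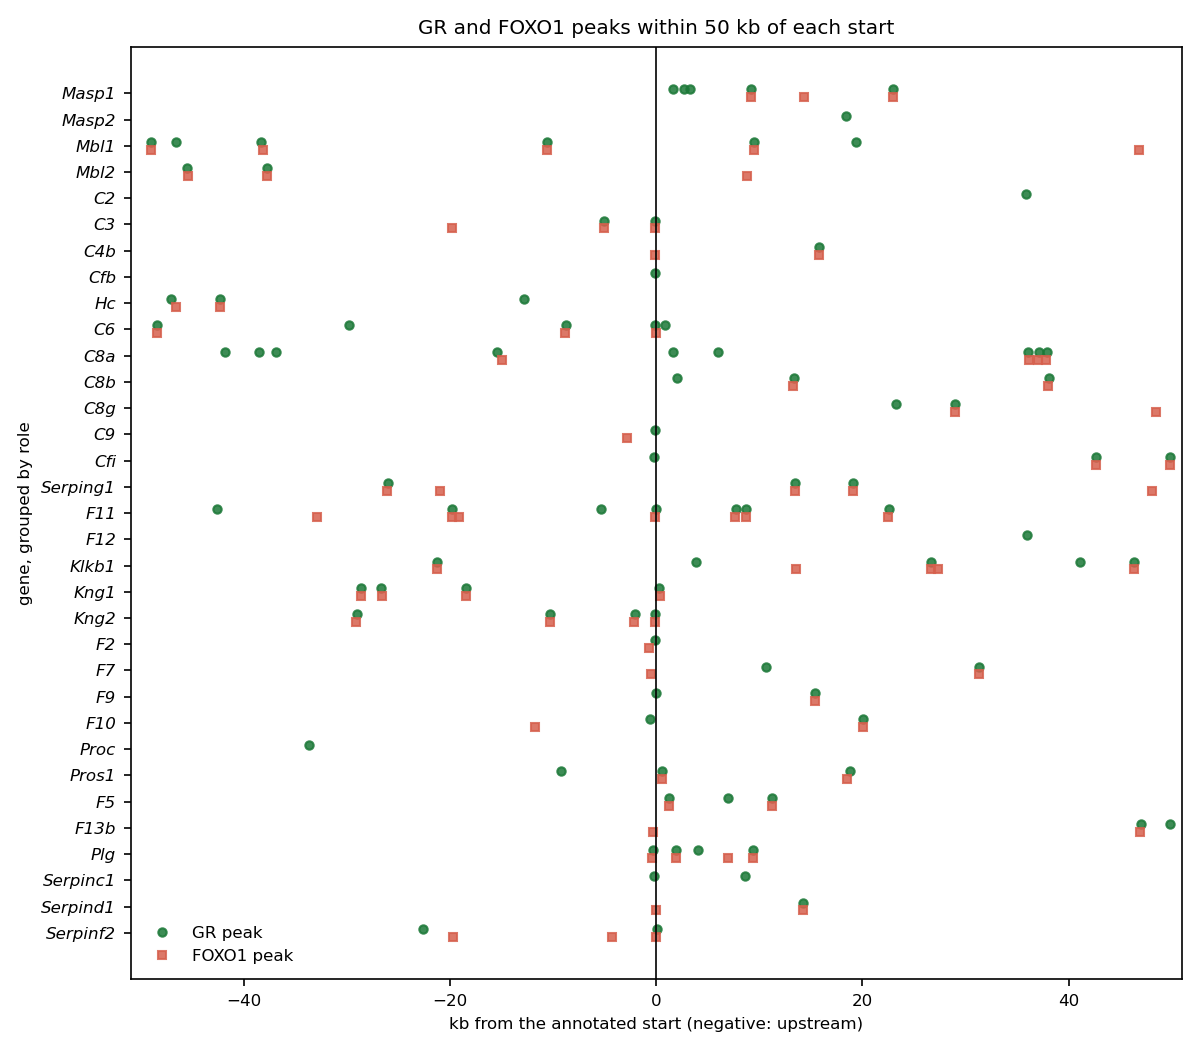
GR peaks (circles) and FOXO1 peaks (squares) of unfed livers within 50 kb of the annotated start of each of the 33 genes, with distance in kb on the x axis (negative, upstream) and genes ordered by role on the y axis. All 33 rows hold a circle and 27 a square, and many squares sit just below a circle at the same distance.

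The 33 transcripts differed widely in level. In the 20 injected mice, C3, the central protein of complement, had a mean of 1189 RPKM and was the most abundant of the 33, and Pros1 was the least abundant. F2, which encodes prothrombin, stayed at group means between 518 and 570 RPKM over the 5 injected groups, at 711 to 719 over the 4 lean and obese groups, and at 745 and 761 in the AAV-GFP control and L-GRKO. The L-IRSdKO experiment showed lower levels of abundant transcripts as a whole, since its highest RPKM of any gene was 673.9 to 914.2 per library, against 18853 to 60597 in the other 46 libraries. The ratio of floxed control to fed dex livers, both fed and given dex but of different substrains, fell from a median of 1.93 for genes at 10 to 20 RPKM to 0.19 for genes above 1000 RPKM. Levels in that experiment are therefore used only within it, and whether this compression alters its fold changes was not tested.

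**Figure D2:**
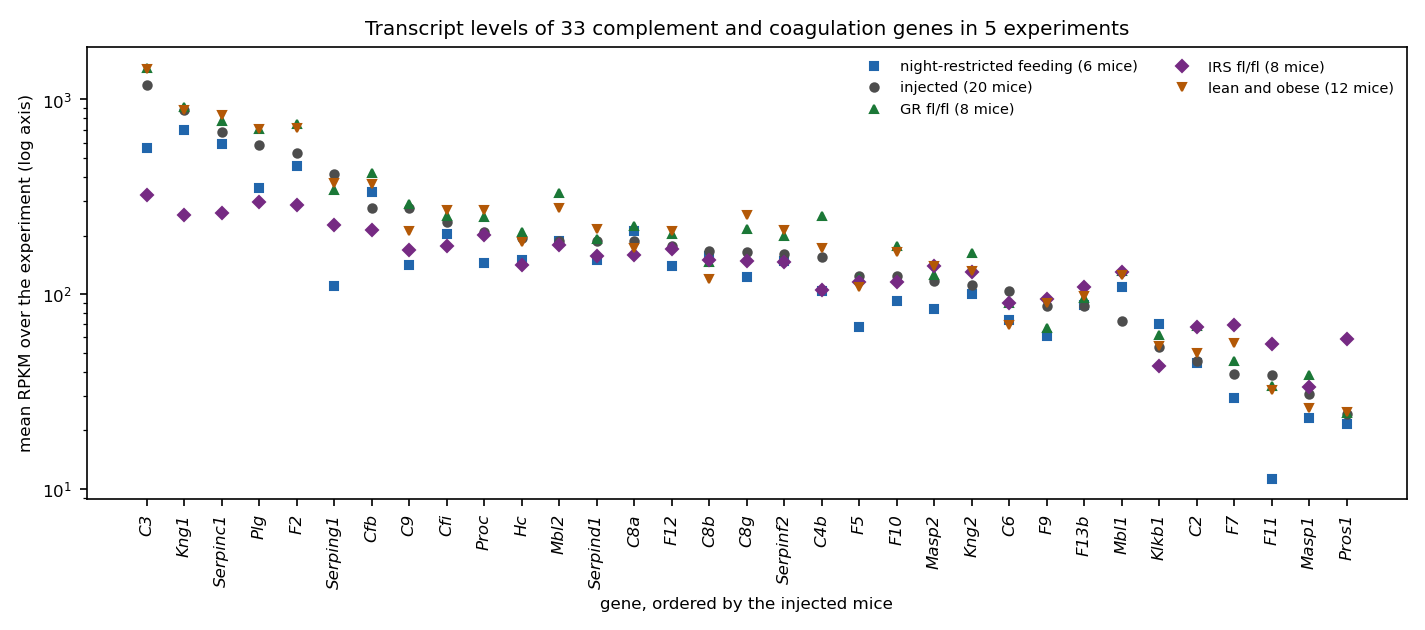
Mean RPKM (log axis) of the 33 genes in each of the 5 experiments, with genes ordered by their level in the injected mice. C3 is highest and Pros1 lowest in the injected mice, and the diamonds of the L-IRSdKO experiment lie lowest for the most abundant genes.

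Across 15 comparisons, 25 calls fell on 19 of the 33 genes, and 15 of the calls came from L-IRSdKO. Hc was called in 3 comparisons, C6, C8b, C9, and Cfb in 2, and 14 genes in 1. The 14 genes called in none were C2, C3, Masp2, F2, F5, F7, F9, F10, F11, F12, F13b, Kng1, Plg, and Serpinc1. Fewer hepatocytes and less RNA per hepatocyte cannot be told apart in these bulk livers.

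**Figure D3:**
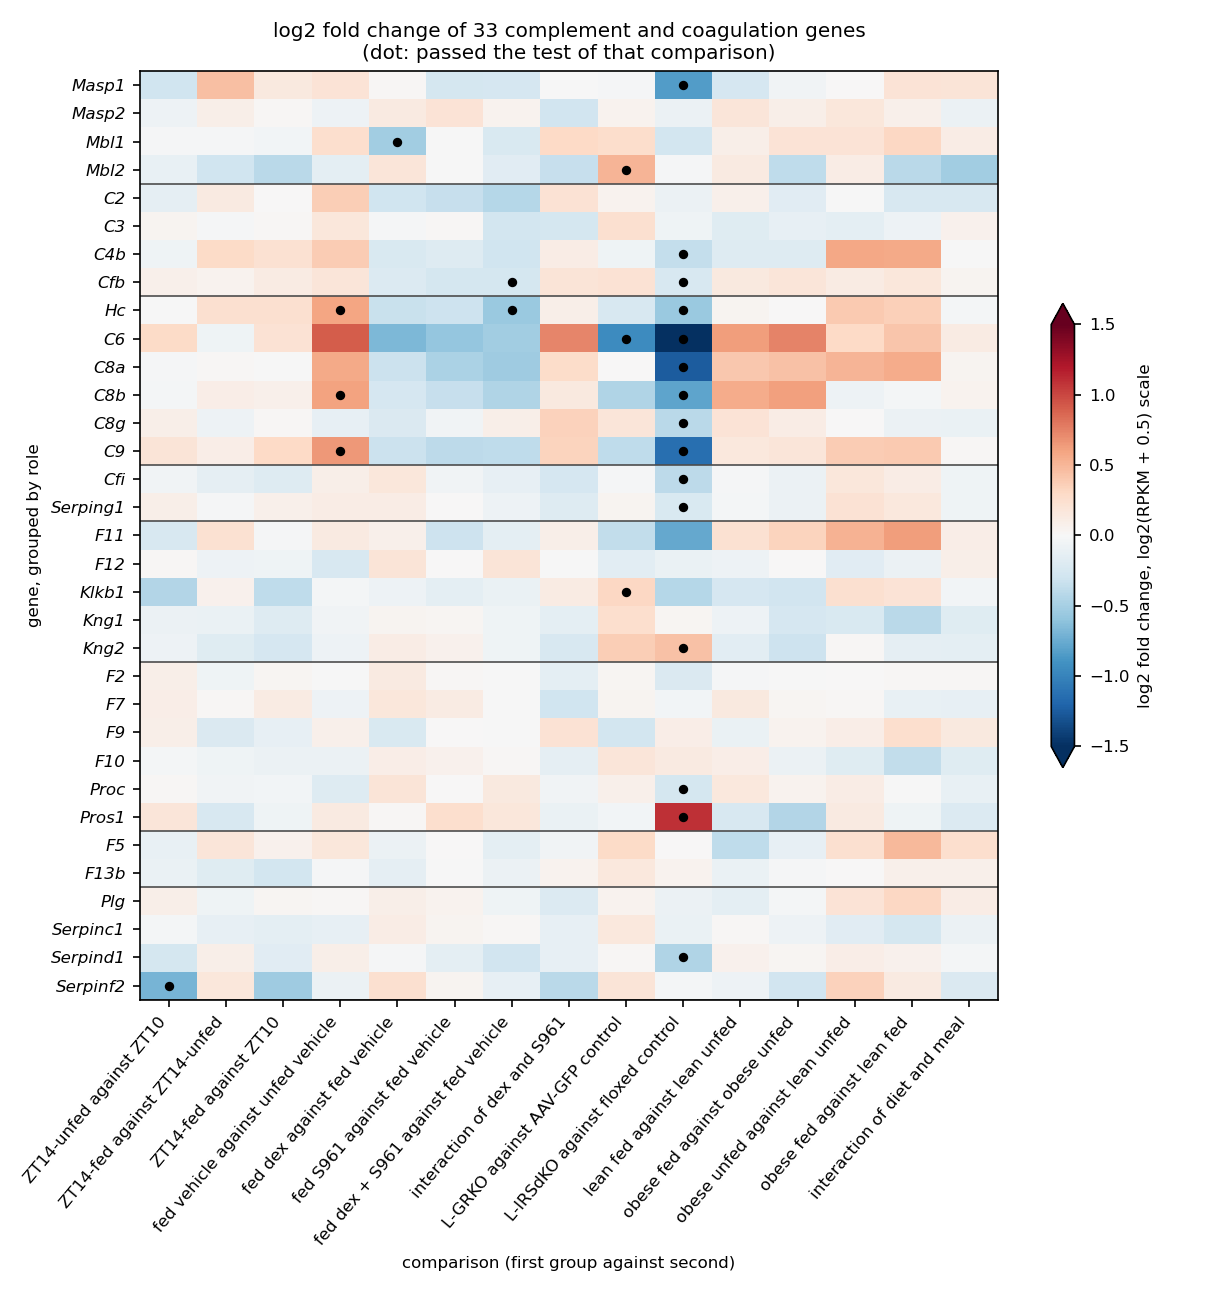
Log2 fold change (color, log2(RPKM + 0.5) scale, first group against second) of the 33 genes, ordered by role, in 15 comparisons, with a dot where a gene passed the threshold of that comparison. The L-IRSdKO column holds 15 of the 25 dots, 2 of them higher in the knockout, and the terminal complement rows are the most deeply colored.

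The terminal complement genes encode the parts of the membrane attack complex, with Hc for C5, C8a, C8b, and C8g for the 3 chains of C8, and C9 for the protein that forms the pore. Between fed and unfed vehicle livers, the comparison that asks what a meal does to the liver, 3 of the 6 passed. Hc (NM_010406, chr2:34838851-34916958 in mm9, as for all positions here) was at 230, 277, 221, and 252 RPKM in the fed vehicle livers and at 162, 166, 164, and 155 in the unfed vehicle livers (log2 fold change 0.59, SE 0.14, limma adjusted p = 0.0308). C8b (NM_133882, chr4:104438922-104477153) was at 205, 226, 192, and 203 RPKM in fed and 138, 133, 129, and 144 in unfed livers (log2 fold change 0.60, SE 0.15, limma adjusted p = 0.0378). C9 (NM_013485, chr15:6395327-6448744) was at 333, 375, 279, and 411 RPKM in fed and 209, 228, 225, and 221 in unfed livers (log2 fold change 0.65, SE 0.16, limma adjusted p = 0.0329). In all 3 genes each fed liver lay above each unfed liver, and the unfed livers lay close together.

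Those 3 were the only calls among the 33 genes in that comparison, all higher after the meal, where 2.55% of the 11251 genes tested were called higher. C6, which binds C5b, was at 129, 204, 132, and 119 RPKM in fed against 74.4, 76.4, 85, and 68.7 in unfed livers (log2 fold change 0.90, SE 0.29, limma adjusted p = 0.0907), and C8a had 0.57 (SE 0.18, limma adjusted p = 0.0949). For both genes the groups did not overlap, yet neither passed in this fit, and the share of all genes without overlap was not counted. C8g had -0.12 (SE 0.31, limma adjusted p = 0.875). The median log2 fold change was 0.60 over the 6 terminal genes, 0.09 over the 33, and 0.10 over all genes tested. With the libraries scaled to a common median ratio, which moved the median of all genes by 0.099, 0 of the 33 genes were called, and leaving out any 1 of the 8 libraries left 0 to 2. The call of C8b was lost in all 8 of those omissions, that of C9 in 7, and that of Hc in 6. The summed RPKM of 7 Kupffer cell or macrophage markers was 79.0 to 114.9 in fed and 55.4 to 68.6 in unfed vehicle livers, with 3 of the 7 called higher and 0 of the 7 at 0 in every library, and their part in the result was not tested.

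**Figure D4:**
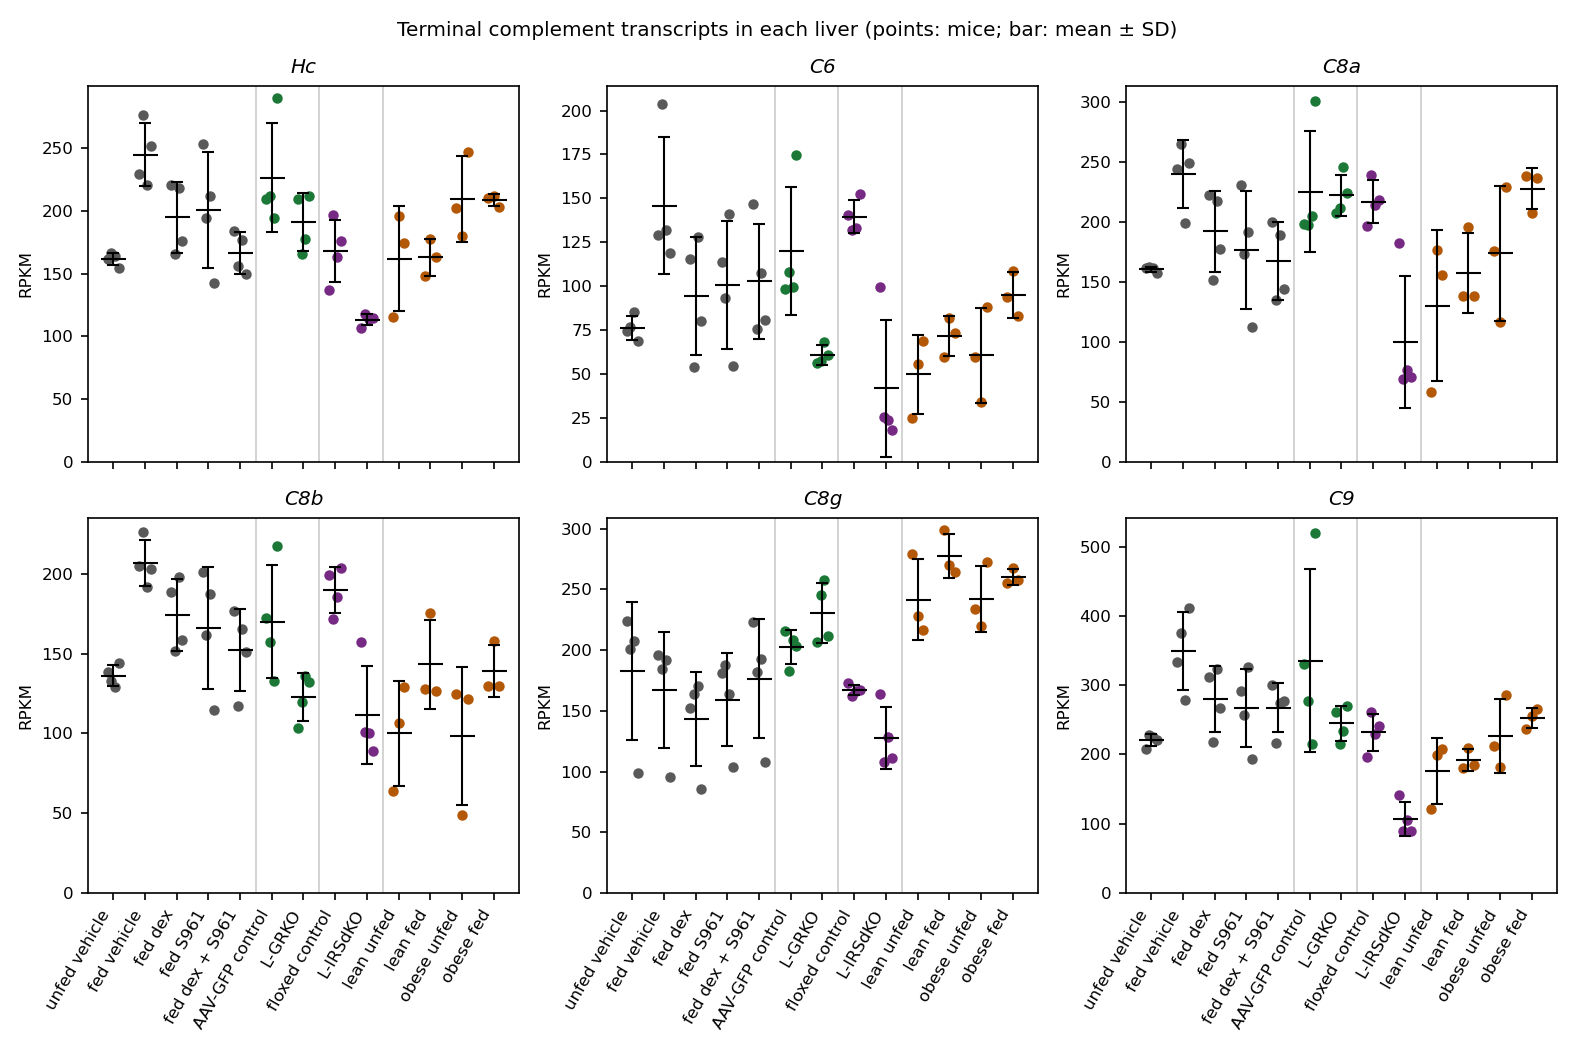
RPKM (linear axes from 0) of the 6 terminal complement genes in each liver of 13 groups, with points for mice and bars for mean ± SD and vertical lines between experiments. Fed vehicle livers lie above unfed vehicle livers for Hc, C6, C8a, C8b, and C9, and 1 L-IRSdKO liver lies apart from the other 3 for C6, C8a, and C8b.

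No coagulation factor, contact system gene, or inhibitor passed between fed and unfed vehicle livers. F2 was at 521 ± 42.1 RPKM (SD, n = 4) in fed and 521 ± 12.4 in unfed livers, and the 95% interval of the log2 fold change ran from -0.16 to 0.15. Plg, which encodes plasminogen, was at 587 ± 106 against 575 ± 48.8 RPKM (interval -0.22 to 0.25), and Serpinc1, which encodes antithrombin, at 652 ± 34.0 against 710 ± 25.6 (interval -0.28 to 0.03). F13b, the carrier subunit of factor XIII, was at 89.8 ± 10.0 against 90.4 ± 6.66 RPKM (interval -0.26 to 0.23), and F7 and F10, the protease of the tissue factor pathway and its substrate, had intervals of -0.34 to 0.18 and -0.27 to 0.10. The intervals were wider for F12 (-0.64 to 0.15), Proc (-0.55 to 0.17), and Pros1 (-0.32 to 0.60), genes whose libraries numbered 4 differed from the rest, as described below. The 6 vitamin K-dependent genes had a median log2 fold change of -0.04, 2 being above 0 and 4 below. The 4 convertase genes all lay above 0 with a median of 0.28 and 0 calls, C3 being at 1267 ± 210 against 1113 ± 81.4 RPKM (interval -0.10 to 0.45).

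Without injection no terminal gene passed between ZT14-unfed and ZT14-fed. There Hc was at 141 and 143 against 167 and 169 RPKM (log2 fold change 0.24, SE 0.08, limma adjusted p = 0.105), and C9 was at 142 and 145 against 159 and 149 (log2 fold change 0.10, SE 0.08, limma adjusted p = 0.489). C8b had a log2 fold change of 0.10 (SE 0.08, limma adjusted p = 0.468). Of the 33 genes 0 passed in that comparison, where 0.99% of 10907 genes were called in either direction, and 4 of the 33 had an unadjusted limma p under 0.05, against 3021 of all. The lowest adjusted p was that of Masp1 (0.45, SE 0.09, limma adjusted p = 0.0353), a protease bound to the lectins. Whether the effect of the meal differed between these mice and the injected ones was not tested, and the former had 2 mice per group.

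Dex and S961 were each compared with the same fed vehicle livers that served above, so these comparisons are not independent of that one or of each other. After dex + S961, Hc fell to 184, 156, 177, and 149 RPKM, from 230, 277, 221, and 252 in fed vehicle (log2 fold change -0.56, SE 0.14, limma adjusted p = 0.017). Cfb, the protease subunit of the alternative convertase, was at 265, 262, 271, and 250 RPKM against 320, 318, 323, and 299 in fed vehicle (log2 fold change -0.26, SE 0.08, limma adjusted p = 0.0455). The groups did not overlap for either gene. The transcript of Cfb shares 74.19% of its 50-base stretches with the read-through model Gm20547, so its reads could be counted for either. These were 2 of 33 genes, both lower, where 7.9% of all genes were called lower, and the median log2 fold change was -0.12 over the 33 and -0.14 over all genes. With median-ratio scaling, which moved the median of all genes by -0.138, neither passed. Only without fed vehicle replicate 4 did both calls stand, and the other 7 omissions left 0 or 1.

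C8a at -0.53 (SE 0.18, limma adjusted p = 0.0705) and C8b at -0.45 (SE 0.15, limma adjusted p = 0.066) missed the threshold after dex + S961. The median over the 6 terminal genes was -0.49 after dex + S961, -0.32 after dex, and -0.37 after S961. After S961 alone C8a was at 231, 173, 191, and 112 RPKM, against 244, 265, 199, and 250 in fed vehicle (log2 fold change -0.48, SE 0.18, limma adjusted p = 0.222). Fed S961 replicate 4 was the lowest of its group for all 6 terminal genes, and fed dex + S961 replicate 1 the highest of its group for all 6. Of the 33 genes 0 passed after S961, where 1.9% of all genes were called in either direction, and 7 of the 33 had an unadjusted limma p under 0.05, against 1605 of all. The interaction of dex and S961 gave 0 calls among the 33 genes and 0% of all 11251, with 1 and 513 genes at an unadjusted limma p under 0.05. The Kupffer cell or macrophage markers summed to 58.8 to 71.4 RPKM in fed dex + S961 livers, 4 of the 7 being called lower than in fed vehicle, and 3 of the 7 after S961, and their part in these results was not tested.

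Mbl1, a mannose-binding lectin, was the only one of the 33 genes called after dex alone. It was at 48.3, 54.1, 65.0, and 64.1 RPKM after dex and 83.4, 91.7, 88.1, and 69.6 in fed vehicle (log2 fold change -0.52, SE 0.14, limma adjusted p = 0.0388). The groups did not overlap, although dex replicate 3 and fed vehicle replicate 4 came close to each other. Among all genes 2.19% were called lower after dex. With median-ratio scaling, or without fed vehicle replicate 1, 2, or 3 or dex replicate 1 or 2, 0 of the 33 genes passed. Mbl2, the other lectin, was at 206, 231, 191, and 207 RPKM after dex and 195, 159, 178, and 200 in fed vehicle, and it was not called. After dex 9 acute-phase genes summed to 4405 to 5193 RPKM against 2930 to 4009 in fed vehicle. Of the 9, 2 were called higher, and their median log2 fold change was 0.027. The Kupffer cell or macrophage markers summed to 47.5 to 82.8 against 79.0 to 114.9, with 1 of 7 called lower and a median of -0.508. Their part in the result was not tested.

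In the injected mice the libraries numbered 4 differed from those numbered 1 to 3 in every group. They are treated below as a separate series of libraries, and what set them apart is not known here. Masp2, the protease that cleaves C4 and C2, was at 157.8 to 170.7 RPKM in the 5 libraries numbered 4 and at 82.4 to 115.7 in the other 15. C8g was at 85.9 to 107.7 in the former and 152.6 to 223.6 in the latter. In all 5 groups the library numbered 4 was the highest for 4 of the 33 genes (Masp2, F5, F12, and Proc) and the lowest for 8 (C2, C8g, Cfi, F9, Kng1, Kng2, Serpind1, and Pros1). The spread of those 12 genes within each group includes this difference, and a term for the series raised the number of the 33 genes called between fed and unfed vehicle from 3 to 5 and after dex + S961 from 2 to 6. The share of all genes called with that term is not given here, so the rise is not read as particular to the 33 genes.

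In L-GRKO livers Nr3c1, which encodes GR, was at 4.41 ± 0.637 RPKM (SD, n = 4) against 14.2 ± 1.55 in the AAV-GFP control, a log2 fold change of -1.58 (limma adjusted p = 6.83e-05). C6 (NM_016704, chr15:4677175-4765456) was at 56.0, 57.4, 68.3, and 60.8 RPKM in L-GRKO and 98.4, 108, 99.4, and 175 in the control (log2 fold change -0.94, SE 0.17, limma adjusted p = 0.00889). All L-GRKO livers lay below all controls. Control replicate 4 stood above the other 3, and C6 was called in each of the 8 fits without 1 library, with log2 fold changes from -1.02 to -0.75. A GR peak lay within 1 kb of the start of C6, as printed above, and of 14 further genes, among them C3 and F2, which were not called in L-GRKO.

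Mbl2 was at 371, 330, 365, and 490 RPKM in L-GRKO and 264, 263, 281, and 277 in the control (log2 fold change 0.51, SE 0.12, limma adjusted p = 0.0305). Klkb1, plasma prekallikrein of the contact system, was at 65.5, 74.2, 65.1, and 69.0 RPKM against 55.5, 55.7, 52.2, and 57.4 (log2 fold change 0.31, SE 0.08, limma adjusted p = 0.046). In both genes the lowest L-GRKO liver exceeded the highest control. Both calls depended on the scaling. With median-ratio scaling the 3 calls, 2 higher and 1 lower, became 4, namely 0 higher and 4 lower (C6, C8b, F9, and F11). Without AAV-GFP replicate 1, 2, or 4 or L-GRKO replicate 1 or 3, only the call of C6 remained. The call of Klkb1 was lost in each of the 8 fits without 1 library, and that of Mbl2 in 5 of them. Among all 11649 genes tested 4.46% were called higher and 2.22% lower.

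No other terminal complement gene passed in L-GRKO, although 4 of the 6 had a log2 fold change under 0 and the median of the 6 was -0.31. C9 had -0.38 (SE 0.22, limma adjusted p = 0.385), Hc -0.23 (SE 0.14, limma adjusted p = 0.389), and C8g 0.18 (SE 0.10, limma adjusted p = 0.362). C8a was at 208, 212, 246, and 224 RPKM against 198, 197, 205, and 301 (log2 fold change 0.00, SE 0.14, limma adjusted p = 0.996), and C8b was at 103, 120, 136, and 132 against 173, 158, 133, and 217 (log2 fold change -0.45, SE 0.15, limma adjusted p = 0.102). F11, the zymogen activated by factor XII, had -0.37 (SE 0.10, limma adjusted p = 0.0562). The median over the 33 genes was 0.05 and over all genes 0.08. Of the 6 hepatocyte markers 2 were called lower (Tat and Cps1), with a median log2 fold change over the 6 of -0.402. The study reports that dex restored Tat, at least in part, in fed livers, so Tat is not a marker of hepatocytes alone in L-GRKO. Among the markers not called, Alb (0.21) and Ttr (0.23) lay above 0, and Apoa1 (-0.46) and Hnf4a (-0.34) below. The summed RPKM of the 6 markers, to which abundant genes add most, was 31222 to 42139 in L-GRKO and 29657 to 43604 in the control. Among 9 acute-phase genes 1 was called lower (Hp), with sums of 2008 to 2430 against 2536 to 3153 but a median log2 fold change of -0.007. Their part in the result was not tested.

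In L-IRSdKO livers 15 of the 33 genes passed, 13 lower and 2 higher, where 8.31% of 12966 genes were called lower and 9.06% higher. The median log2 fold change was -0.22 over the 33 genes and 0.03 over all genes. The floxed gene Irs1 was at 0.149, 0.155, 0.321, and 0.170 RPKM in the knockouts and between 2.21 and 4.73 in the floxed controls (log2 fold change -2.66, limma adjusted p = 0.000916). Irs2 was not called (log2 fold change -0.79, limma adjusted p = 0.308), at 0.272 to 1.00 RPKM against 0.614 to 5.61.

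L-IRSdKO replicate 1 stood apart from the other 3 knockouts before any member is considered. Across genes, its log2 values correlated at 0.938 to 0.942 with the other knockouts and at 0.936 to 0.942 with the floxed controls. The highest correlation of each of the other 3 with another knockout was 0.967 to 0.968. Those 3 correlated at 0.914 to 0.929 with the floxed controls. Its Irs1 was nonetheless as low as in the others, so the check of the targeted gene does not go against its label. Replicate 1 was the highest of the 4 knockouts for 21 of the 33 genes and the lowest for 8. The values below include it unless stated otherwise, and log2 fold changes without it are given for the genes called. Without replicate 1, 19 of the 33 genes passed, 17 lower and 2 higher, and 11.6% and 11.7% of all genes.

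All 6 terminal complement genes were lower in L-IRSdKO. C6 was at 99.7, 25.2, 23.7, and 17.9 RPKM in replicates 1 to 4 and at 141, 132, 133, and 153 in the floxed controls (log2 fold change -2.09, SE 0.45, limma adjusted p = 0.0159), and -2.63 (limma adjusted p = 1.23e-05) without replicate 1. Replicates 2 to 4 held between 12.9% and 18% of the floxed mean, and replicate 1 held 71.4%. C8a (NM_001290645, chr4:104488284-104549003) was at 182, 69.1, 76.7, and 70.5 RPKM against 196, 240, 214, and 218 (log2 fold change -1.25, SE 0.28, limma adjusted p = 0.0188), and -1.58 without replicate 1. C9 was at 142, 89.7, 105, and 89.8 RPKM against 196, 261, 229, and 241 (log2 fold change -1.13, SE 0.15, limma adjusted p = 0.00359, and -1.28 without replicate 1). C8b was at 157, 101, 100, and 89.0 RPKM against 199, 172, 185, and 203 (log2 fold change -0.80, SE 0.16, limma adjusted p = 0.0128, and -0.97 without replicate 1). No knockout value reached the lowest floxed value in these 4 genes, although for C8a replicate 1 came near it.

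Hc was at 107, 117, 114, and 115 RPKM against 137, 196, 163, and 176 (log2 fold change -0.56, SE 0.10, limma adjusted p = 0.00968, and -0.53 without replicate 1). Here replicate 1 was the lowest knockout, and the 4 knockouts lay close together. C8g, the smallest chain of C8, was at 164, 108, 128, and 111 RPKM against 173, 162, 166, and 167 (log2 fold change -0.41, SE 0.12, limma adjusted p = 0.0484, and -0.53 without replicate 1), and its groups overlapped through replicate 1. Hc, C8b, and C9 were called in each of the 8 fits without 1 library, whereas C6 was lost without L-IRSdKO replicate 2 or 3 and C8a without 2, 3, or 4, the fits that give replicate 1 more weight. The call of C8g was lost in 7 of the 8 fits.

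**Figure D5:**
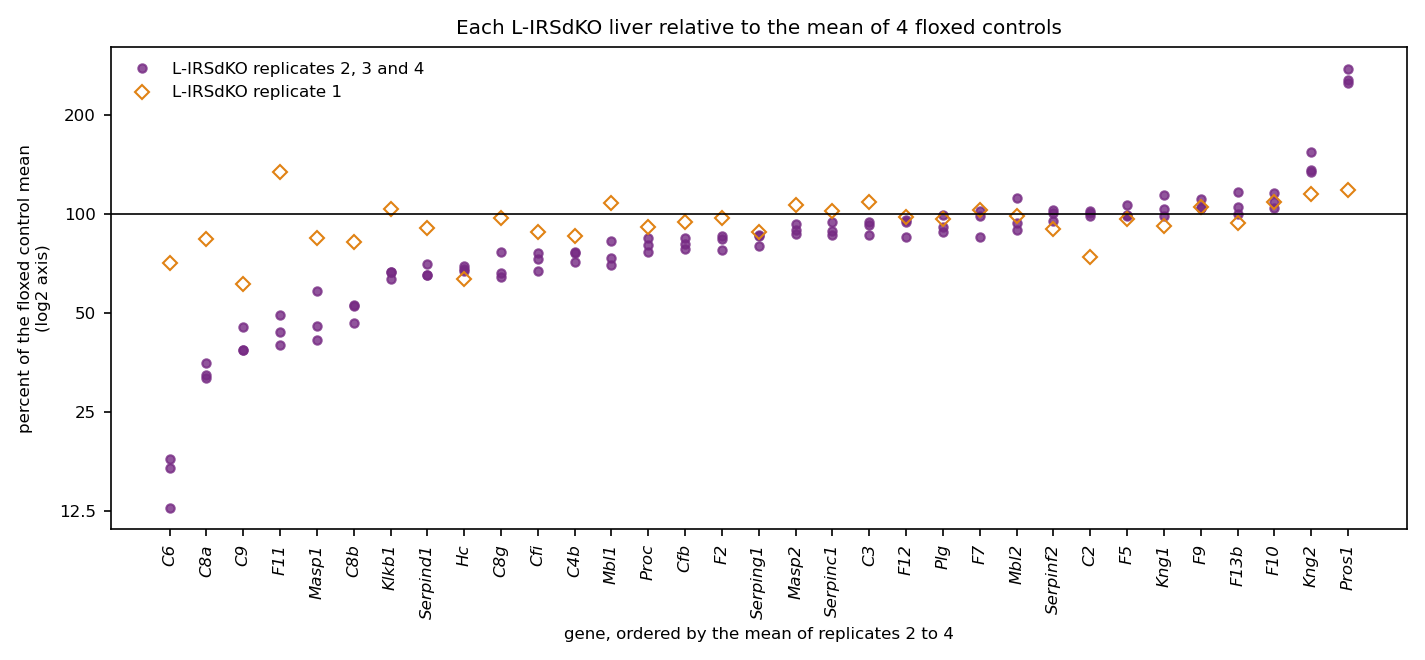
RPKM of each L-IRSdKO liver as a percent of the mean of the 4 floxed controls (log2 axis), for the 33 genes ordered by the mean of replicates 2 to 4, with replicate 1 as open diamonds. Replicates 2 to 4 lie at 12.9% to 18% for C6 and at 250% to 277% for Pros1, and replicate 1 lies nearer to 100% for both.

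Upstream of the terminal genes, the changes in L-IRSdKO were smaller except for Masp1. Masp1 (NM_008555, chr16:23449490-23520676) was at 35.8, 24.6, 19.3, and 17.5 RPKM against 43.6, 45.8, 39.2, and 40.0 (log2 fold change -0.83, SE 0.20, limma adjusted p = 0.0218, and -1.03 without replicate 1). Cfi, the protease that inactivates C3b and C4b, was at 177, 147, 154, and 135 RPKM against 180, 218, 200, and 204 (log2 fold change -0.39, SE 0.09, limma adjusted p = 0.0223, and -0.46 without replicate 1). C4b was at 102, 90.8, 91.0, and 84.9 RPKM against 106, 129, 116, and 123.4 (log2 fold change -0.36, SE 0.08, limma adjusted p = 0.0192, and -0.41 without replicate 1). The groups did not overlap for the 3 genes, with replicate 1 just under the lowest floxed liver for Cfi and C4b. C4b has the near-identical neighbor C4a, and how reads were divided between them is not known. Cfb, Serping1, and Proc passed with log2 fold changes of -0.24, -0.23, and -0.26, and of -0.29, -0.25, and -0.31 without replicate 1. C3 was at -0.07 (95% interval -0.24 to 0.10) and C2 at -0.08 (-0.39 to 0.22), and neither passed.

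Pros1 encodes protein S, the cofactor of activated protein C, and was the gene most raised in L-IRSdKO among the 33. Pros1 (NM_011173, chr16:62854133-62929172) was at 42.8, 90.6, 100, and 92.6 RPKM against 30.6, 34.9, 40.1, and 39.2 (log2 fold change 1.10, SE 0.25, limma adjusted p = 0.0191), and 1.38 (limma adjusted p = 0.000102) without replicate 1. Replicate 1 lay just above the highest floxed liver, and the other 3 were at 250% to 277% of the floxed mean. The zymogen Proc, which encodes protein C, moved the other way. Protein S is also made outside hepatocytes, endothelium included, and 6 markers of sinusoidal endothelium summed to 131.6 to 165.2 RPKM in L-IRSdKO and 104.2 to 132.6 in floxed livers, with 4 of 6 called higher and 0 of 6 at 0 in every library. Their part in the result was not tested.

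Kng2, a kininogen, was at 128, 151, 173, and 150 RPKM in L-IRSdKO and 103, 129, 114, and 98.9 in floxed livers (log2 fold change 0.44, SE 0.11, limma adjusted p = 0.0271, and 0.51 without replicate 1). Serpind1, which encodes heparin cofactor II, was at 164, 118, 128, and 119 RPKM against 155, 196, 180, and 193 (log2 fold change -0.46, SE 0.12, limma adjusted p = 0.0308, and -0.56 without replicate 1). Both groups overlapped. Kng2 shares 19.31% of its 50-base stretches with other transcripts, mainly Kng1, which was at 0.03 (95% interval -0.14 to 0.21). F11 was at 89.9, 29.4, 33, and 26.7 RPKM in L-IRSdKO and 64.8, 68.1, 65.8, and 68.0 in floxed livers, so that replicate 1 was the highest of the 8 livers and the other 3 the lowest. It missed the threshold with replicate 1 (-0.76, SE 0.33, limma adjusted p = 0.146) and passed without it (-1.16, SE 0.08, limma adjusted p = 8.11e-05), as did F2, Klkb1, and Mbl1.

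Of the coagulation zymogens and their inhibitors most did not pass in L-IRSdKO. The log2 fold change was -0.22 for F2 (95% interval -0.37 to -0.06, limma adjusted p = 0.063), -0.04 for F7 (-0.22 to 0.15), 0.10 for F9 (-0.10 to 0.29), 0.13 for F10 (0.01 to 0.26), 0.01 for F5 (-0.13 to 0.14), and -0.10 for Serpinc1 (-0.24 to 0.03), none of which passed. Markers of other cells also differed, 7 Kupffer cell or macrophage markers summing to 279.6 to 350.6 RPKM against 163.1 to 298.6 with 1 of 7 called higher, and 5 cholangiocyte markers to 7.9 to 13.9 against 19.7 to 46.2 with 2 called lower. Of 9 acute-phase genes 2 were called lower, with sums of 1013 to 1981 against 1873 to 2457. Their part in the result was not tested. The number of calls depended on single libraries. It was 9, 8, and 8 without floxed replicate 2, 3, or 4, and 3, 3, and 4 without L-IRSdKO replicate 2, 3, or 4, fits in which replicate 1 was 1 of 3 knockouts.

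Serpinf2, which encodes the main inhibitor of plasmin, was the only one of the 33 genes called in the NRF mice. Serpinf2 (NM_008878, chr11:75245234-75253093) was at 194 and 189 RPKM at ZT10, 118 and 119 at ZT14-unfed, and 131 and 135 at ZT14-fed. The log2 fold change between ZT10 and ZT14-unfed was -0.69 (SE 0.08, limma adjusted p = 0.00649), and between ZT10 and ZT14-fed it was -0.53 (SE 0.08, limma adjusted p = 0.0126), above the threshold of 0.01. Neither ZT14 group overlapped ZT10. Among all genes 0.788% were called lower between ZT10 and ZT14-unfed, and 1.71% were called in either direction between ZT10 and ZT14-fed, where 0 of the 33 passed and 7 had an unadjusted limma p under 0.05, against 3087 of all 10907. The call was lost without any 1 of the 4 libraries, in which case 1 group holds a single mouse, and with median-ratio scaling. Klkb1 was at 84.1 and 84.2 RPKM at ZT10 and 68.2 and 55.9 at ZT14-unfed (log2 fold change -0.44, SE 0.11, limma adjusted p = 0.0501), not past the threshold.

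In lean and obese mice 0 of the 33 genes passed in any of 5 limma comparisons. Of all 11434 genes, 10.2% were called between lean fed and lean unfed livers, 1.22% between obese fed and obese unfed, 0.77% between obese unfed and lean unfed, 0% between obese fed and lean fed, and 0.743% for the interaction of diet and meal. At an unadjusted limma p under 0.05 there were 2, 5, 6, 10, and 1 of the 33 genes, and 4147, 2878, 2624, 2284, and 1713 of all genes. C4b was at 169, 233, and 263 RPKM in obese unfed and 122.8, 183, and 138 in lean unfed livers (log2 fold change 0.58, SE 0.18, limma adjusted p = 0.0911), and the groups overlapped. Between fed livers it was at 164, 197, and 213 against 138, 130, and 117 (log2 fold change 0.57, SE 0.18, limma adjusted p = 0.135), without overlap.

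The terminal genes varied among single unfed livers in this experiment. C6 was at 24.9, 55.8, and 68.7 RPKM in lean unfed and 59.5, 34.0, and 87.9 in obese unfed livers, and C8a at 58.4, 177, and 156 and at 176, 116, and 229. Lean unfed replicate 1 was the lowest of its group for 5 of the 6 terminal genes and obese unfed replicate 2 for 6 of 6. The fed groups were tighter, with C6 at 59.3, 81.7, and 73.3 in lean fed and 93.7, 109, and 82.8 in obese fed livers. Between fed and unfed lean livers C8b had a log2 fold change of 0.56 (SE 0.34, limma adjusted p = 0.268), and in obese livers 0.61 (SE 0.34, limma adjusted p = 0.301), beside 0.60 (SE 0.15) in the injected mice. Hc and C9, also called in the injected mice, had smaller log2 fold changes here than there. Those of Hc were 0.04 in lean and 0.01 in obese livers, and those of C9 0.16 and 0.18, none called. Kng2 and Pros1 had the lowest adjusted p between obese fed and unfed livers, with -0.30 (limma adjusted p = 0.0329) and -0.44 (limma adjusted p = 0.0514), short of 0.01.

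Of 51 other genes of the same pathways, 36 to 40 passed the filter on low values, and few changed outside L-IRSdKO. In L-IRSdKO, 9 of 40 rose and 8 fell, beside the 9.06% and 8.31% of all genes. Thbd, the endothelial receptor that lets thrombin activate protein C, was at 14.5 to 21.6 RPKM against 4.28 to 7.15 in floxed livers (log2 fold change 1.54, SE 0.19, limma adjusted p = 0.00243), and Cd55, which decays convertases on cell surfaces, at 13.8 to 15.5 against 6.10 to 8.36 (1.04, SE 0.11, limma adjusted p = 0.00175). C4a was at 0.444 to 3.96 RPKM against 57.0 to 66.7 (-4.89, SE 0.42, limma adjusted p = 0.000625), and Serpine2, an inhibitor of thrombin, at 0.217 to 4.53 against 14.7 to 52.3 (-3.92, SE 0.60, limma adjusted p = 0.00503). These 4 genes were without overlap, replicate 1 included. Serpina5 also fell (-1.67, SE 0.46, limma adjusted p = 0.0378), by more than Thbd or Cd55 rose, and is not described liver by liver here.

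Thbd and Cd55 were also the 2 of 36 such genes that rose between unfed and fed vehicle, beside 2.55% of all genes. Their log2 fold changes were 1.18 (SE 0.20, limma adjusted p = 0.00539) and 0.57 (SE 0.13, limma adjusted p = 0.0252). After S961 these 2 fell, with -1.06 (SE 0.20, limma adjusted p = 0.00922) and -0.51 (SE 0.13, limma adjusted p = 0.046), against the same fed vehicle livers. In that comparison 1.9% of all genes were called in either direction. After dex + S961, 4 of 36 fell, Thbd, Cd55, Ggcx, and Tfpi, beside 7.9% of all genes, and after dex 3 of 36, F3, F8, and Cd55, beside 2.19%. In L-GRKO 1 of 38 such genes rose and 2 fell, beside 4.46% and 2.22% of all genes. F3, which encodes tissue factor, was at 2.06 to 2.46 RPKM in L-GRKO and 0.717 to 1.57 in the control (0.81, SE 0.17, limma adjusted p = 0.0191), while C4a and Serpine2 fell, with -1.05 (SE 0.22, limma adjusted p = 0.0175) and -1.42 (SE 0.35, limma adjusted p = 0.036). In the NRF mice 1 of 36 passed, Serpine2, at 1.44 and 1.55 RPKM at ZT10 and 4.57 and 5.07 at ZT14-unfed (1.41, SE 0.14, limma adjusted p = 0.00547), beside 41 of all 10907 genes called higher. In the lean mice 3 of 36, F3, Ggcx, and Mcfd2, rose after the meal, beside 800 of all 11434 genes. F3 was higher in obese than in lean unfed livers (0.92, SE 0.12, limma adjusted p = 0.00365), beside 48 of all 11434 genes called higher. Its response to the meal differed by diet (-0.89, SE 0.17, limma adjusted p = 0.0442), beside 0.743% of all genes in either direction.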

How the data were processed

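The deposited RNA values are RPKM per RefSeq transcript, made by the authors from reads aligned to mm9 with STAR and counted with HOMER, whose versions are not given in the sources used here. The authors kept GR and FOXO1 peaks concordant in 2 replicates of unfed livers and called DNase-accessible sites on pooled reads; their lists hold positions without heights, so no peak strength was compared. No read counts were used here. The steps between low RPKM values did not recover whole reads (66.2% to 75.5% of low values lay within 0.08 of a whole read), so no depth was derived from them, and the read totals stated by the study were not used here.

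Of 35707 RefSeq IDs, 35407 matched a symbol and 300 did not. Where a gene had several IDs (12 of the 33), the one with the highest mean RPKM over all libraries was taken. Each experiment was fitted in limma 3.58.1 (R 4.3.3) with a trended empirical Bayes variance on log2(RPKM + 0.5), all groups sharing 1 spread, after removing genes under a mean of 0.5 RPKM. The pseudocount makes fold changes of low genes smaller than the ratio of their RPKM. Tables were handled in Python 3.11.15 with pandas 2.3.3 and numpy 2.4.6. The limma step was tested on simulated data with known changes. Samples were grouped by their labels, each library being a separate mouse, and p-values measure only the spread between these samples. Intervals do not cover errors shared by all libraries of an experiment.

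The members and lists were chosen with earlier results of these data known. Every member past a threshold was described liver by liver, up to 12 per comparison ordered by size, with the targeted genes and up to 4 other pathway genes. Alternatives were other pseudocounts, filters, scalings, thresholds, sample sets, a replicate block, a term for library series, and each library left out. Reads of Cfb and C2 may be shared with Gm20547, and antisense overlaps of C2, Hc, Masp2, and F5 cannot be separated because the counting strand is not given in the sources used here.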

Additional observations from a re-analysis of the deposited data

Results flagged for a closer look

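Within groups of 4 livers, 69 sets of values were examined for a single liver far from the other 3, and 9 were found. The sets were those of genes called in that experiment, and in L-IRSdKO also of genes called only without replicate 1. That choice favors genes in which replicate 1 stands apart, and the sets share livers. The rate of about 1 in 20 by chance holds for unselected, independent sets, so the 9 cannot be weighed against it. Of these, 5 fell on L-IRSdKO replicate 1. It was at 99.7 RPKM for C6 (other knockouts 17.9 to 25.2), 182 for C8a (69.1 to 76.7), 89.9 for F11 (26.7 to 33), 51 for Klkb1 (31 to 32.8), and 42.8 for Pros1 (90.6 to 100). The other 4 fell on different livers. C6 was at 175 RPKM in AAV-GFP control replicate 4 (98.4 to 108 in the others), Cfb at 301 in fed dex replicate 3 (264 to 267), Mbl1 at 80.1 in unfed vehicle replicate 3 (65.2 to 67.6), and F2 at 315 in floxed control replicate 3 (303 to 305).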

How the results depend on the processing

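The counts of called genes among the 33 moved with the processing and with single libraries. The shares of all genes called under these alternatives are not given in this section. Over the 25 single-gene calls and their alternatives, 252 of 415 values kept the call, 163 lost it, and 0 changed direction, and for C6 in L-GRKO and for Hc and C9 in L-IRSdKO all 16 alternatives kept it. ZT14-unfed against ZT10 (1 call) gave 0 with no filter, median-ratio scaling, the replicate block, the compared groups alone, or any 1 of 4 libraries left out (0 to 0). ZT14-fed against ZT14-unfed (0) gave 1 at a threshold of 0.05, and ZT14-fed against ZT10 (0) gave 1 at 0.05, 1 with a filter at 2 RPKM, and 1 with scaling. Fed against unfed vehicle (3) gave 0 at 0.01, 1 with no filter, 0 with scaling, 5 with the replicate block, 5 with the series term, 5 with the compared groups alone, and 0 to 2 without single libraries. Dex (1) gave 0 at 0.01, 0 with no filter, 0 with scaling, 0 with the groups alone, 0 to 1 without single libraries, and 2 with replicates 1 to 3 only, an alternative chosen after seeing the data. Dex + S961 (2) gave 0 at 0.01, 0 with scaling, 6 with the replicate block, 6 with the series term, 1 with the groups alone, and 0 to 2 without single libraries. L-GRKO (3) gave 1 at 0.01 and 1 to 3 without single libraries. L-IRSdKO (15) gave 2 at 0.01, 9 with the replicate block, and 3 to 19 without single libraries. Lean fed against lean unfed (0) gave 0 to 1 without single libraries, the 1 arising without lean unfed replicate 1, and obese fed against obese unfed (0) gave 1 at 0.05. The cause was not tested, except that fewer samples enter a fit without a library. The replicate numbers were not taken to pair the livers, since no label ties them to a litter or day and not every pair of same-numbered livers deviated together. Deviations of same-numbered livers correlated above 0.1 in 27 of 40 pairs of injected groups (median 0.142, highest 0.605), 0 of 6 in the NRF, 1 of 4 in the L-GRKO, 0 of 4 in the L-IRSdKO, and 3 of 18 in the lean and obese mice. With 2 mice per NRF group, and with counting error not estimated in any experiment, small differences may have gone undetected.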
